A study of Homo sapiens with 7 samples.

Results

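Constitutive double-stranded RNA loci are annotated repeat copies that already gave J2-bound reads in cells that received no 5-Aza-CdR. They were chosen as copies with at least 8 raw reads summed over the PBS and Vc libraries of the same set, with at least 2 reads in each, and with a repeat name that does not start with LTR12. This rule found 600 loci, which is 0.0853% of the 703140 annotated copies of long terminal repeat (LTR) elements in the locus tables. The reads of those PBS and Vc libraries chose the loci, so their values there are given as a description and carry no test.

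The cells were HCT116, an established human colon carcinoma line, and all libraries came from RNA bound by J2, an antibody against double-stranded RNA. Lysates were digested with RNase T1, which cuts single-stranded RNA, and with DNase, per the labels' protocols. Set 1 held 1 library each of 5-Aza-CdR, the Combination and PBS, and set 2 held 1 library each of Vc, 5-Aza-CdR, the Combination and PBS. The drug 5-Aza-CdR blocks the enzymes that methylate DNA. It was given at 0.3 µM, fresh medium replaced it after 24 h, and the cells were taken on day 5. Doses of Vc and of the agents of the Combination are not in the labels, and the published account of the work gives Vc as vitamin C and the Combination as both agents together. PBS cells are the control without drug. The labels do not say whether the sets came from separate cultures, so differences between libraries may be technical. The tables hold repeats alone, so cell markers were not examined.

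LTR elements are remnants of retroviruses in the genome: an internal part with viral genes lay between a pair of identical LTRs, and recombination between these often left a solitary LTR. RNA from such copies becomes double-stranded when both strands are transcribed, or when inverted copies in a single transcript fold on each other. Cells read long double-stranded RNA as a sign of viral infection, through sensors such as MDA5, and DNA methylation is known to keep many LTR elements silent. HERVH is a young primate retrovirus that is flanked by LTR7. MLT1, MST and THE1 form the older MaLR group, whose internal parts carry no working retroviral genes.

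Read depth limits most values below. Reads counted over repeat families numbered 11531 for 5-Aza-CdR, 14319 for the Combination and 23131 for PBS in set 1. In set 2 they numbered 18495 for Vc, 23528 for 5-Aza-CdR, 32403 for the Combination and 19450 for PBS. Scaled values are per family-sheet read of the library. The family sheet of set 1 lists HERVE_a-int and MER11B at 0 although the locus sheets hold reads for them, so sums over loci use the other 598 members. Values are of bulk lysates, in which fewer cells with RNA from a locus and less RNA per cell cannot be told apart. Intervals are 95% intervals, cover counting error alone, and rest on PCR reads without molecular identifiers, which are not independent molecules.

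The 600 loci carried 175 repeat names and were dominated by a young and an old group. HERVH and LTR7 held 143 of them, of which 133 were internal HERVH copies, and MLT1 held 135, mostly LTRs. MST held 48, THE1 34, the MLT2, HERVL and ERVL group 32, and HERVK with LTR5 and related LTRs 26. The remaining groups held 59 or fewer loci each, and the smallest was HERV9 with 2.

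Set against how often each element occurs in the genome, these groups looked different. HERVH and LTR7 gave 6.02 loci per 1000 annotated copies, and internal HERVH copies gave 22.7 per 1000. HERVK and LTR5 gave 3.89 per 1000. Of its LTRs, LTR5A gave 19.2 per 1000 (5 loci) and LTR5_Hs 14.6 per 1000 (9 loci). HERVIP10FH-int gave 13.4 per 1000. MLT1 gave 0.578 and THE1 0.579 per 1000, below the 0.853 per 1000 of all copies. MLT1 has 233716 annotated copies, 33.2% of all, and 22.5% of the loci.

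**Figure D1:**
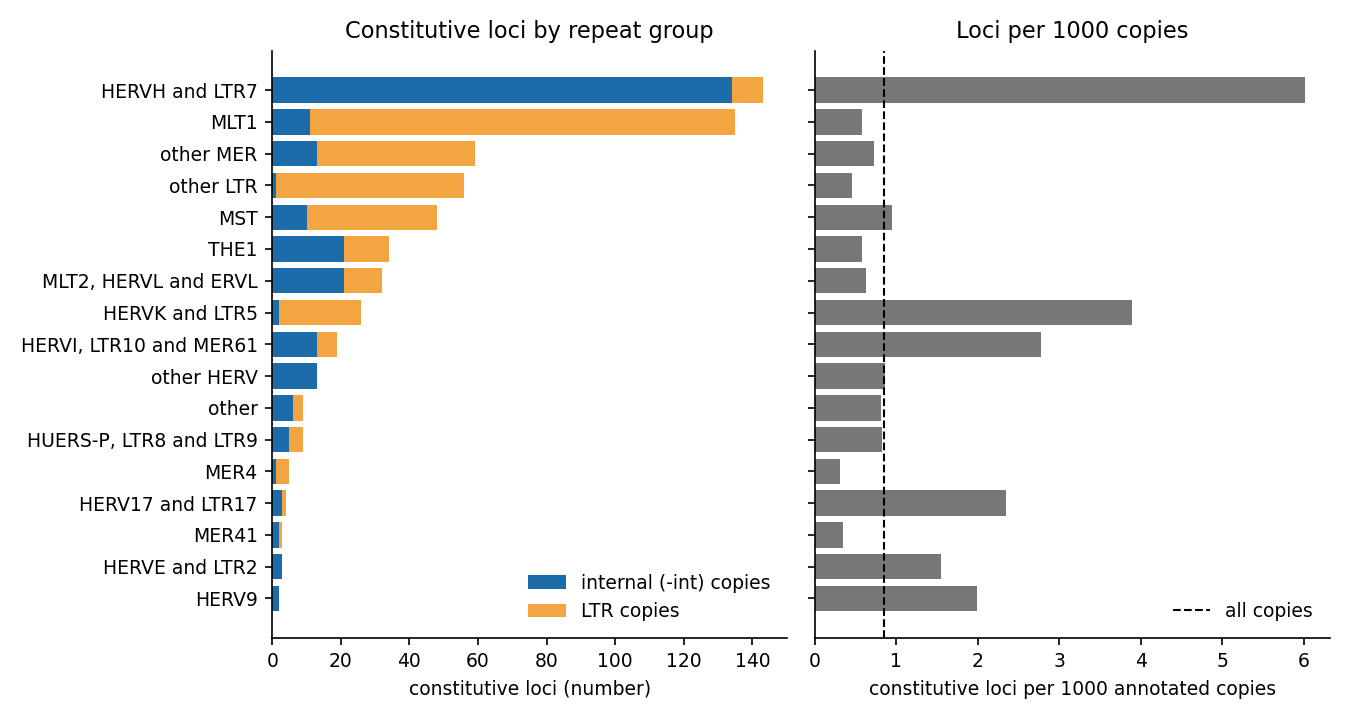
Number of constitutive loci in each repeat group, split into internal and LTR copies (left, bars start at 0), and loci per 1000 annotated copies of the same group (right, with a dashed line at the value of all copies). HERVH and LTR7 lead on both measures, while MLT1 has 135 loci but 0.578 per 1000 copies.

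Long copies and internal parts were frequent among the loci. The median length was 489 bp for the 600 loci and 335 bp for all copies, and 24.3% of the loci but 4.31% of all copies were over 1 kb. Internal parts made up 43.5% of the loci and 13.7% of all copies. Loci per 1000 copies ran from 0.291 for copies of up to 200 bp to 0.604, 1.13, 2.5 and 9.12 for copies of 201 to 400, 401 to 800, 801 to 1600 and over 1600 bp. Longer copies can gather more reads, so length and the read threshold cannot be told apart here. The annotated strand was plus for 316 and minus for 284 loci; the strand of the reads is not given.

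By chromosome, the loci were most frequent on 19, with 2.23 per 1000 copies (32 loci), and on 22, with 2.09 per 1000 copies (15 loci). They were least frequent on 13, with 0.397 per 1000 copies (10 loci), and on Y, with 0.364 per 1000 copies (3 loci). Of the Y loci, HERVIP10FH-int at chrY:347800-348022 and MSTB1 at chrY:2206483-2206888 each had a chromosome X copy of the same name and length. Those X copies are constitutive loci too, and the MSTB1 copies had the same reads in every library. Whether such copies share reads was not tested.

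Neighbours were read from the annotated copies alone. Another constitutive locus lay within 1 kb of 142 loci (23.7%), against 0.176% of all copies. On the opposite strand this held for 28 loci (4.67%), against 0.0316% of all copies. An inverted copy of the same repeat name, which could pair with the locus in a hairpin, lay within 1 kb of 10 loci (1.67%), against 1.38% of all copies. For any inverted copy of the same group the shares were 6% of loci and 7.7% of all copies. Within 10 kb, an inverted copy of the same group lay near 22.3% of loci and 33.6% of all copies. Genes around the loci are not described. Reads of a single transcript that spans several copies are counted at each of them, so neighbours are not independent of each other.

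Joining loci within 10 kb of each other gave 75 runs of 2 or more, which held 186 loci (31%), and 16 runs held 3 or more. All loci lay on the same annotated strand in 55 runs and on both strands in 20. The run with most members had 8 loci of MLT1 and MER68 over 8043 bp at chr16:23680568-23688610, with 5 on the plus and 3 on the minus strand. A run of 6 internal HERVH pieces lay on the plus strand at chr1:68852123-68856868. Another run of 6, with HERVH-int, LTR7C and LTR10C, lay at chr19:15939548-15949265. A THE1B run of 5 lay at chr4:39533700-39536380.

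The closest opposite-strand pairs abutted. THE1D at chr5:68575633-68575977 (minus) was followed directly by LTR43 at chr5:68575978-68576526 (plus). LTR37B at chr3:111711558-111711726 (minus) was followed by MER68 at chr3:111711727-111712276 (plus), and LTR10C at chr19:15948159-15948742 (minus) by a plus-strand LTR10C at chr19:15948743-15949265. In the chromosome 16 run, MER68-int at chr16:23684912-23686057 (plus) ended 1 bp before MLT1B at chr16:23686059-23686439 (minus), and 13 bp further came another MER68-int. MER51A and MLT1J at chr3:44793484-44793926 and chr3:44793945-44794333 faced each other with 18 bp between them.

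Some loci share name, length and nearly their read counts with another copy, and the sources used here do not give the rule by which a read that fits more than 1 copy was counted. MLT1B copies of 209 bp at chrX:151877862-151878070 and chrX:151927411-151927619 had 13 and 10 reads in 5-Aza-CdR, 14 and 15 in the Combination, 28 and 28 in Vc and 20 and 20 in PBS of set 2. LTR5_Hs copies of 973 bp on chromosome 1, at chr1:146068276-146069248, chr1:147610112-147611084 and chr1:148565786-148566758, had 64, 67 and 67 reads over the 4 libraries of set 2. Whether such copies share reads was not tested, so their number is uncertain.

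Many internal HERVH loci were also of nearly equal length. Of 268 annotated HERVH-int copies of 498 to 504 bp, 119 had any PBS or Vc read in set 2 and 35 were constitutive loci, on 17 chromosomes. Leaving out the highest, on chromosome 1, the other 34 had 2 to 10 reads each in Vc and 3 to 10 in PBS of set 2, a range whose low end the threshold sets. Of all 133 internal HERVH loci, 114 had 15 or fewer summed PBS and Vc reads, with a median of 10. Whether these copies share reads was not tested.

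Reads were spread thinly over most loci and heavily over a few. The 600 loci had 11786 PBS and Vc reads in all, with a median of 12 per locus and a highest value of 351. The 23 loci with 64 or more summed reads held 21.8% of these reads. Raw reads were higher in Vc than in PBS at 259 loci, lower at 262 and equal at 79. HUERS-P1-int of 69 bp at chr5:137765896-137765964 had 38 reads in Vc, 9 in 5-Aza-CdR, 5 in the Combination and 5 in PBS of set 2. Loci at the threshold looked like those just outside it: 88 loci had 8 summed reads, and 79 other copies had 7. The 88 loci had a median of 2.5 reads for 5-Aza-CdR and 3 for the Combination in set 2, and the 79 copies a median of 2 in each. Inside the threshold, MSTA-int at chr4:53528305-53530090 had 3 reads in Vc and 5 in PBS, and LTR82A at chr4:120218140-120218583 had 4 and 4. Outside it, LTR6A at chr3:39449151-39449180 had 2 reads in Vc and 5 in PBS, and LTR16B at chr7:126986732-126987179 had 5 and 2.

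The highest locus was an MSTB2 LTR of 171 bp at chr5:862748-862918. It had 181 raw reads in Vc, 27 in 5-Aza-CdR, 30 in the Combination and 170 in PBS of set 2, and 0 in all 3 libraries of set 1. An MLT1A1 LTR 2 kb away, at chr5:860625-860972, had 114, 10 and 5 reads in Vc, 5-Aza-CdR and the Combination and 121 in PBS of set 2, and again 0 throughout set 1. Per family-sheet read, 5-Aza-CdR over PBS in set 2 was 0.131 (95% interval 0.0841 to 0.198) for MSTB2 and 0.0683 (0.032 to 0.13) for MLT1A1. The PBS and Vc reads that chose this pair enter these ratios, which are a description, and set 1 held no read to set beside them.

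The chromosome 1 HERVH run was present in every library. Its main piece, HERVH-int of 2542 bp at chr1:68852826-68855367, had 32 reads in 5-Aza-CdR, 75 in the Combination and 161 in PBS of set 1. In set 2 it had 109 in Vc, 97 in 5-Aza-CdR, 176 in the Combination and 169 in PBS. Per family-sheet read, 5-Aza-CdR over PBS was 0.399 (0.264 to 0.585) in set 1 and 0.474 (0.366 to 0.613) in set 2. Another piece of the run, at chr1:68855487-68855986, had 1 read in 5-Aza-CdR, 2 in the Combination and 49 in PBS of set 1. In set 2 it had 31, 64 and 42 in the same order. Pieces of this run thus differed in how far the sets resembled each other. The set 2 reads at chr1:68855487-68855986 were close to those of HERVH-int at chr19:15940452-15945535. That copy had 33 in Vc, 31 in 5-Aza-CdR, 62 in the Combination and 40 in PBS of set 2, and 0 in PBS of set 1. Whether these copies share reads was not tested.

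Several other leading loci were MaLR LTRs with lower values under drug in set 2. The PBS and Vc reads that ranked these loci are also the reference there, so the set 2 values are a description. MLT1J at chr20:390955-391309 had 18 reads in 5-Aza-CdR and 28 in the Combination, against 45 in Vc and 60 in PBS. MLT1D at chrX:54595286-54595553 had 12 in 5-Aza-CdR and 15 in the Combination, against 41 in Vc and 35 in PBS. MSTB1 at chr2:37332357-37332794 had 19 and 29 under the drugs, against 44 in Vc and 40 in PBS. In set 1 MSTB1 had 1 and 4 under the drugs, against 0 in PBS, and the test of single loci called it higher in the Combination (edgeR adjusted p = 0.0462). MLT1J at chr22:45530260-45530736 did not follow them, with 61 reads in 5-Aza-CdR, 41 in the Combination, 37 in Vc and 49 in PBS. MLT1A at chr1:158893902-158894106 had 29 in 5-Aza-CdR and 53 in the Combination, against 27 in Vc and 60 in PBS.

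**Figure D2:**
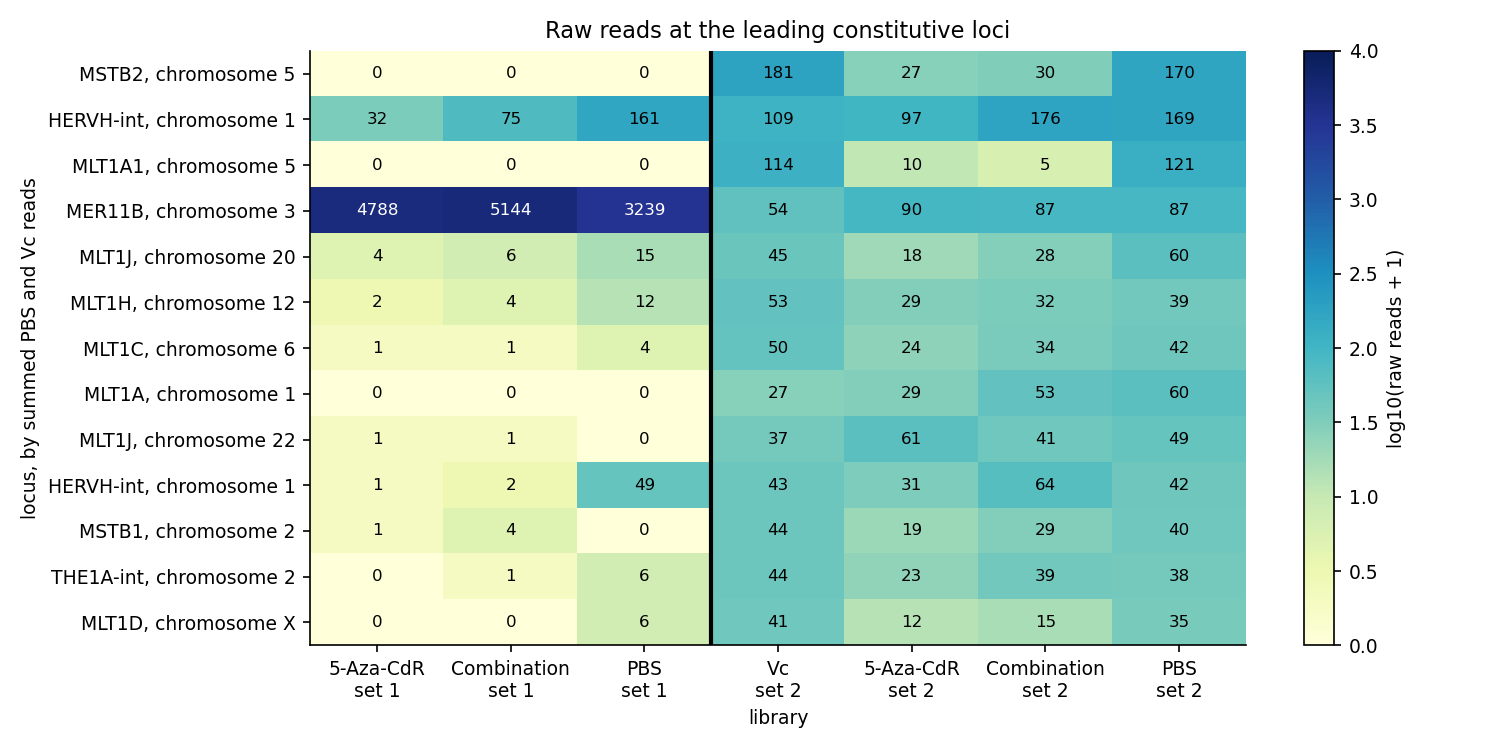
Raw reads in each library at 13 of the 15 constitutive loci with most summed PBS and Vc reads (rows), for set 1 (left of the line) and set 2 (right of it); the colour shows log10 of the reads plus 1. MSTB2 and MLT1A1 on chromosome 5 are at 0 throughout set 1, and MER11B on chromosome 3 has 4788 reads in 5-Aza-CdR of set 1, against 3239 in PBS.

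Some loci were far more abundant in set 1. HERVE_a-int of 466 bp at chr6:4428317-4428782 had 22762 reads in 5-Aza-CdR, 31334 in the Combination and 106889 in PBS of set 1, but 7 reads in Vc, 7 in 5-Aza-CdR, 5 in the Combination and 8 in PBS of set 2. MER11B of 1277 bp at chr3:15779666-15780942 had 4788, 5144 and 3239 reads in set 1 in the same order, and 54 in Vc, 90 in 5-Aza-CdR, 87 in the Combination and 87 in PBS of set 2. MER21C, a piece of 73 bp at chr1:91852713-91852785, had 397, 320 and 704 reads in set 1, and 10, 15, 15 and 13 reads in set 2. The set 2 tables are named for marked duplicates, and what part that step has in these gaps was not tested.

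Set 1 did not choose the loci. At least 1 of its 3 libraries held a read at 363 of the 600 loci (60.5%). PBS of set 1 had at least 1 read at 235 of the 600 loci (39.2%, Wilson interval 35.3 to 43.1), against 0.865% of all copies and 6.57% of the 17102 other non-LTR12 copies with 1 to 7 summed reads in set 2. It had at least 5 reads at 102 loci (17%). The share rose with the set 2 reads, from 32.9% of loci with 8 to 15 summed reads to 65.2% of the 23 loci with 64 or more. Yet 21 of the 57 loci with 20 or more PBS reads in set 2 had 0 PBS reads in set 1, and 237 of the 600 loci had 0 in all 3 set 1 libraries. By group, PBS of set 1 had reads at 50% of the MLT2, HERVL and ERVL loci, 46.2% of HERVK and LTR5, 44.1% of THE1, 37.8% of MLT1, 37.1% of HERVH and LTR7, and 25% of MST. A count of 0 in PBS of set 1 allows up to 3 reads of 23131.

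**Figure D3:**
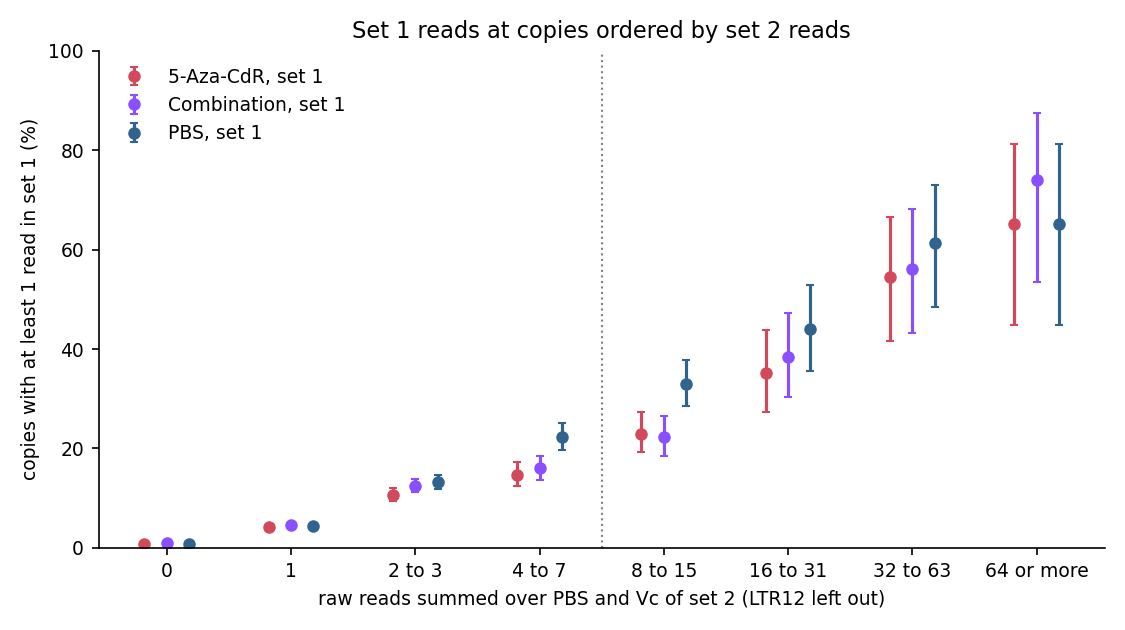
Share of copies with at least 1 read in each set 1 library (y axis, percent, with Wilson 95% intervals) by raw reads summed over PBS and Vc of set 2 (x axis); the dotted line marks the threshold of 8 reads. PBS of set 1 reached 22.2% of copies with 4 to 7 reads, 32.9% with 8 to 15 and 65.2% with 64 or more.

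In the treated libraries, most of the loci kept reads in set 2. In 5-Aza-CdR of set 2, 549 loci (91.5%) had at least 1 read, against 1.75% of all copies, and in the Combination 567 (94.5%), against 2.08% of all copies. In set 1, 181 loci (30.2%) had reads in 5-Aza-CdR, against 1.07% of all copies, and 185 (30.8%) in the Combination, against 1.32% of all copies. Reads in all 7 libraries were found at 71 loci. The loci without drug were therefore also found with it, in the set where they had been found.

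As a share of counted reads, the loci took a smaller part under both treatments. In set 2 the 598 counted loci held 16.1% of family-sheet reads in 5-Aza-CdR and 15.5% in the Combination, against 30% in PBS; Vc, which helped to choose them, held 31.4%. In set 1 they held 8.16% in 5-Aza-CdR and 6.37% in the Combination, against 10.9% in PBS. Per family-sheet read, the summed reads in set 2 were 0.536 times PBS in 5-Aza-CdR (0.514 to 0.558) and 0.516 times PBS in the Combination (0.496 to 0.536). In set 1 they were 0.746 times PBS in 5-Aza-CdR (0.691 to 0.804) and 0.582 times in the Combination (0.539 to 0.628). Each is a ratio of 1 library to another and has no replicate check.

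The scaling and the choice of the loci bear on these ratios. LTR12 copies took 17.6% of family-sheet reads in 5-Aza-CdR of set 1 and 2.01% in PBS, which lowers every other share. Per read outside LTR12, the ratios to PBS were 0.887 for 5-Aza-CdR and 0.741 for the Combination in set 1, and 0.669 and 0.696 in set 2. Non-LTR12 copies outside the loci had ratios per family-sheet read of 0.851 for 5-Aza-CdR and 0.807 for the Combination in set 1, and 0.924 and 0.846 in set 2. PBS of set 2 helped to choose the loci and is also the denominator there. Loci chosen on Vc alone, at 4 or more reads, had ratios to PBS in set 2 of 1.24 for Vc, 0.587 for 5-Aza-CdR and 0.556 for the Combination. Scaled by the tRNA number of each set 1 library, the direction turned: the ratio to PBS was 2.26 in 5-Aza-CdR and 5.25 in the Combination.

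Locus by locus, 512 of the 598 loci (85.6%) were lower in 5-Aza-CdR than in PBS of set 2 per family-sheet read, against 49.7% of copies with a read in either library. In the Combination 524 (87.6%) were lower, against 45%. PBS of set 2 chose the loci, so nothing is read from these counts. In set 1, 192 of the 319 loci with a read in either library (60.2%) were lower in 5-Aza-CdR than in PBS, against 43.9% of such copies. In the Combination of set 1, 206 of 310 (66.5%) were lower, against 39.5%. Reads in both libraries were found at 93 of the 319 loci and 106 of the 310, against 834 of 12740 and 879 of 14428 copies. The rest had reads in PBS or in the treated library alone. PBS of set 1 was counted deeper than either treated library, and the copies compared include LTR12, so these counts are a description.

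**Figure D4:**
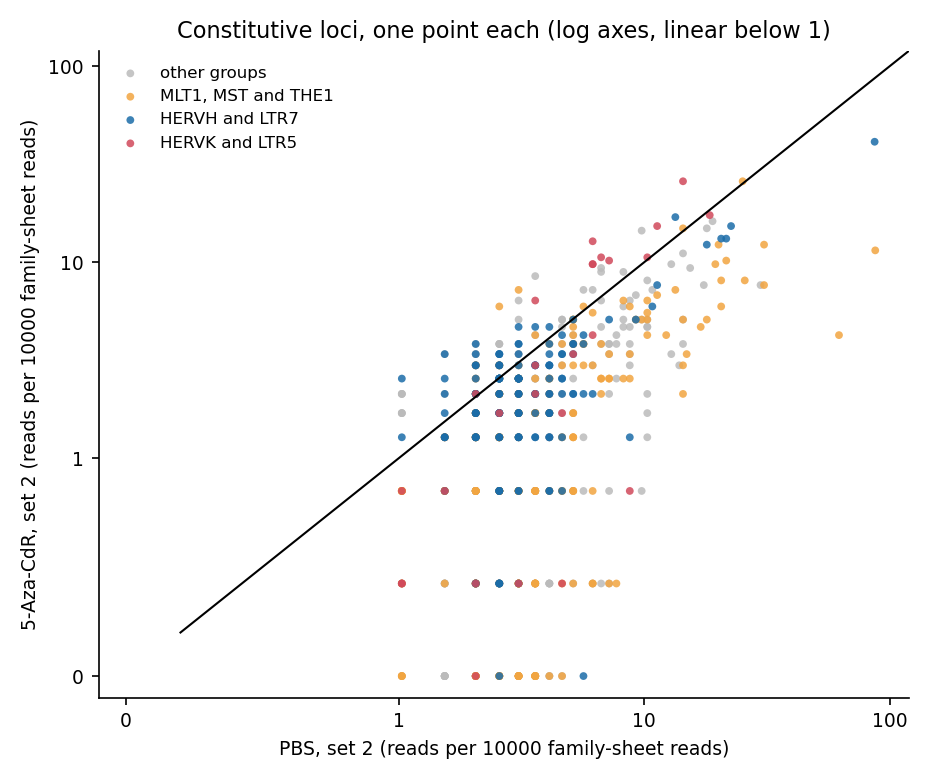
Reads per 10000 family-sheet reads at each of 598 constitutive loci in 5-Aza-CdR (y axis) and PBS (x axis) of set 2, coloured by repeat group, with the line of equal values; axes are logarithmic above 1 and linear below. Most MLT1, MST and THE1 loci lie below the line, while most HERVK and LTR5 loci with 5 or more reads per 10000 in PBS lie near or above it.

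The repeat groups differed in how low they were under the drugs. MST loci had 262 reads in 5-Aza-CdR and 329 in the Combination, against 637 in PBS of set 2, which gave ratios of 0.34 (0.293 to 0.393) and 0.31 (0.271 to 0.355). Without MSTB2 they were 0.416 and 0.384. In set 1 MST gave 0.189 (0.0981 to 0.334) and 0.281 (0.174 to 0.436). MLT1 had ratios of 0.432 for 5-Aza-CdR and 0.42 for the Combination in set 2, and 0.441 and 0.368 in set 1. THE1 had 0.405 and 0.443 in set 2, and 0.401 and 0.228 in set 1. In set 1, which did not choose the loci, both treatments lay below PBS in all 3 MaLR groups per family-sheet read, with intervals below 1, but not by the tRNA number. Set 2 ratios are a description, since PBS there helped to choose the loci. By that number MST gave 0.573 (0.298 to 1.01) for 5-Aza-CdR and 2.54 (1.57 to 3.93) for the Combination in set 1, MLT1 1.34 and 3.32, and THE1 1.22 and 2.06.

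HERVH and LTR7 loci stood nearer to PBS in set 2, with 994 reads in 5-Aza-CdR and 1245 in the Combination, against 1253 in PBS, and ratios of 0.656 (0.603 to 0.713) and 0.596 (0.551 to 0.646). In set 1 the ratios were 0.389 (0.298 to 0.502) and 0.505 (0.406 to 0.624). Most set 1 reads of this group came from the chromosome 1 run. Without it the set 1 ratios were 0.836 (0.547 to 1.25) in 5-Aza-CdR and 0.596 (0.382 to 0.91) in the Combination, and the set 2 ratios were 0.695 and 0.568. By the tRNA number the whole group gave 1.18 (0.905 to 1.52) and 4.56 (3.67 to 5.63) in set 1.

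HERVK and LTR5 loci together lay above PBS in 5-Aza-CdR in set 1 and close to it in set 2. They had 101 reads in 5-Aza-CdR and 95 in the Combination, against 115 in PBS of set 1, with ratios of 1.76 (1.34 to 2.32) and 1.33 (1.01 to 1.77). In set 2 they had 357 and 395 reads, against 279 in PBS, with ratios of 1.06 (0.902 to 1.24) and 0.85 (0.727 to 0.994). Without the member with most reads in each pair, the set 1 ratios were 1.29 (0.93 to 1.78) and 1.07 (0.762 to 1.5), and the set 2 ratios 0.975 and 0.879. The HERVI, LTR10 and MER61 group had ratios of 0.131 (0.0515 to 0.28) in 5-Aza-CdR of set 1 and 0.798 (0.652 to 0.976) in set 2. Differences between groups were not tested.

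**Figure D5:**
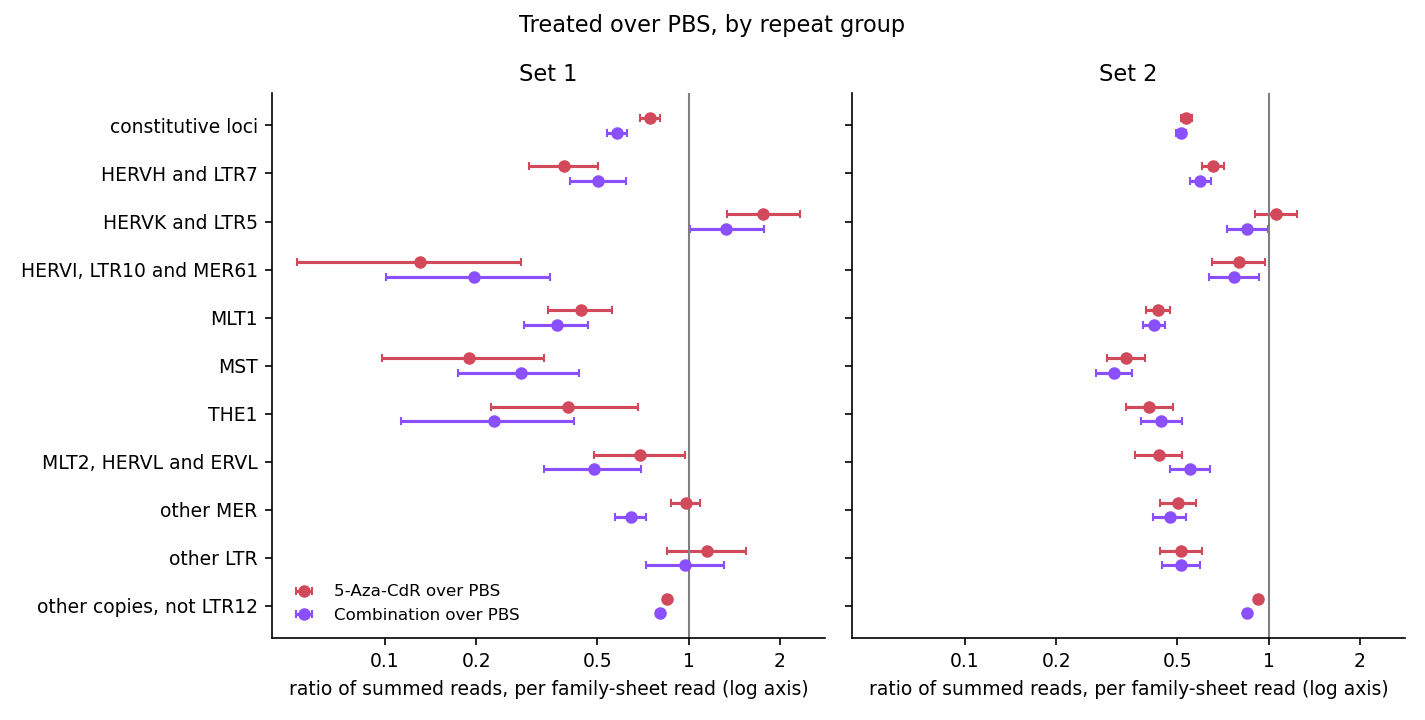
Ratio of summed reads per family-sheet read, treated over PBS (x axis, logarithmic), for repeat groups of the constitutive loci, for the loci together and for non-LTR12 copies outside them, in set 1 (left) and set 2 (right); bars are exact binomial 95% intervals for counting error. Per family-sheet read MST, MLT1 and THE1 lie left of 1 in both sets (by the tRNA number of set 1, MLT1 gave 1.34 in 5-Aza-CdR), and HERVK and LTR5 lie at 1.76 in 5-Aza-CdR of set 1 and 1.06 in set 2.

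To test single loci on libraries that had not chosen them, the 3 libraries of set 1 were fitted together with both drug-treated libraries of set 2. The test was edgeR's quasi-likelihood test with treatment and set as terms, over all 264 copies with at least 30 reads, of which 105 were constitutive loci and 97 were LTR12. PBS had a single library in this fit, so its spread was taken from the treatments with 2 libraries, and 1 residual degree of freedom remained. Prior degrees of freedom were infinite, so the spread was shared over loci and no locus's own spread entered its p-value. The common biological coefficient of variation was 0.176, against 0.486 with all 7 libraries and 0.999 with no term for the set. The p-values and edgeR intervals of this fit rest on that low shared spread. At an adjusted p under 0.05 (Benjamini-Hochberg), 13 constitutive loci rose and 12 fell in 5-Aza-CdR over PBS, against 38.3% higher and 11.4% lower among all copies tested. In the Combination over PBS 12 rose and 13 fell, against 38.3% higher and 14.8% lower. Among the 105 loci, the share that fell was close to that of all copies tested in 5-Aza-CdR and below it in the Combination. The share that rose was below that of all copies in both contrasts. The median log2 change in 5-Aza-CdR was 0.16 for the 105 loci and 2.39 for all 264 copies, and in the Combination -0.1 and 2.3. With family-sheet totals as library sizes the medians of all copies were 1.45 and 1.66, and the medians of the loci were -0.38 and -0.37, so the direction of single loci near 0 depends on the scaling. With those totals 7 constitutive loci rose and 22 fell in 5-Aza-CdR, against 19.3% higher and 18.2% lower among all copies tested. In the Combination 9 rose and 23 fell, against 32.2% and 20.1%.

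These calls rest on the lone PBS library of set 1 and few held elsewhere. Of the 25 loci called in 5-Aza-CdR, 5 were called with the same sign when all 7 libraries were fitted, and of the 25 called in the Combination 3 were. That fit called 2 of 225 constitutive loci higher and 9 lower in 5-Aza-CdR, against 23.5% and 6.6% of the 409 copies tested. In the Combination it called 1 higher and 10 lower, against 26.4% and 7.09%. It includes PBS and Vc of set 2, whose reads chose the loci and favour falls against PBS, so it is no independent check. Constitutive loci fitted numbered 105 by DESeq2 and 591 with no filter beyond 1 read. DESeq2 called 2 in each, against 9.09% and 9.47% of the 264 copies. With no filter beyond 1 read edgeR called 6 and 5, against 0.0842% and 0.0923% of 36832 copies. With no replicate block, that is no term for the set, edgeR called 0 loci in either contrast, with 12 and 13 at an unadjusted p under 0.05. Per family-sheet read, set 2 ran in the called direction for 6 of the 13 loci that rose and 10 of the 12 that fell in 5-Aza-CdR, and for 5 of 12 and 11 of 13 in the Combination. PBS of set 2 helped to choose the loci, which bears on these counts. PBS of set 1 was at 0 for 7 of the 13 loci that rose in 5-Aza-CdR and for 8 of the 12 in the Combination, where a fitted fold is no bound.

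Among loci that rose, MLT2F at chr18:47795693-47796348, an LTR of the HERVL class, was called under each planned setting that kept the set term. It had 18 reads in 5-Aza-CdR and 16 in the Combination, against 0 in PBS of set 1, and 20 and 25, against 7 in Vc and 7 in PBS of set 2. The adjusted p was 1.82e-07 in 5-Aza-CdR and 4.38e-06 in the Combination (edgeR), 0.0185 and 0.035 with all 7 libraries, and 0.095 and 0.0965 with no replicate block. At a floor of 3 reads in PBS of set 1, it was 12-fold higher in 5-Aza-CdR per family-sheet read and 8.62-fold in the Combination. Counting error in the treated reads is left out, so these folds are no strict bound. The set 2 reads give smaller folds. Both treated libraries of each set lay above the libraries without 5-Aza-CdR.

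HERVK3-int of 4139 bp at chr19:58817484-58821622 had 36 reads in 5-Aza-CdR and 35 in the Combination, against 14 in PBS of set 1. In set 2 it had 6 in Vc, 61 in 5-Aza-CdR, 38 in the Combination and 28 in PBS. Its log2 change was 3.51 in 5-Aza-CdR (95% interval 2.56 to 4.46, edgeR adjusted p = 7.43e-11) and 2.43 in the Combination (1.46 to 3.41, adjusted p = 1.6e-05). With all 7 libraries the adjusted p was 0.0676 and 0.379. The LTR3 copy 16 bp before it, at chr19:58817037-58817467, had 5 and 4 reads against 0 in PBS of set 1, and 36 and 24 against 22 in PBS of set 2, and was called as well. Per family-sheet read the set 2 Combination lay below PBS at both copies, with ratios of 0.815 (0.487 to 1.38) at HERVK3-int and 0.655 (0.352 to 1.22) at LTR3. Both copies had their highest set 2 value in 5-Aza-CdR and their lowest in Vc.

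LTR13, an LTR of the HERVK class, at chr17:41400486-41401528, had 25 reads in 5-Aza-CdR and 34 in the Combination, against 23 in PBS of set 1, and 30 and 48, against 5 in Vc and 12 in PBS of set 2. MLT1J2 at chr7:99964960-99965296 had 9 and 6 against 0 in PBS of set 1, and 14 and 9 against 7 in Vc and 5 in PBS of set 2. LTR33A at chr10:115489831-115490287 had 5 and 6 against 0, and 12 and 22 against 6 in Vc and 9 in PBS. MER11B on chromosome 3 was called higher in 5-Aza-CdR, with a log2 change of 2.55 (2.24 to 2.85), but in set 2 its 5-Aza-CdR to PBS ratio was 0.855 (0.63 to 1.16). MER21C on chromosome 1 was called higher in 5-Aza-CdR at a log2 change of 1.13, which was 0.17 with family-sheet totals (edgeR adjusted p = 0.489).

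Among loci that fell, THE1C-int, an internal part of a MaLR element, at chr14:20740347-20741939, was low under both treatments in both sets. It had 0 reads in 5-Aza-CdR and 1 in the Combination, against 21 in PBS of set 1, and 5 and 4, against 24 in Vc and 28 in PBS of set 2. The log2 change was -3.30 in 5-Aza-CdR (-5.97 to -0.63, edgeR adjusted p = 0.0355) and -3.95 in the Combination (-6.49 to -1.42, adjusted p = 0.00745). With all 7 libraries, which include those that chose the loci, the edgeR adjusted p was 0.0473 and 0.0218. That choice favours a fall against PBS, so this is no independent check. In 5-Aza-CdR the fall was called with family-sheet totals, but not with at least 15 reads, no filter beyond 1 read or no replicate block. In the Combination it was also called with at least 15 reads, but not with no filter or no replicate block. MSTB-int in the same run, on the opposite strand at chr14:20738619-20739978, had 0 and 0 against 23 in PBS of set 1, and 1 and 1 against 4 in Vc and 12 in PBS of set 2. The 3 loci of this run together had 0 reads in 5-Aza-CdR and 1 in the Combination, against 44 in PBS of set 1, and 7 and 8, against 32 in Vc and 44 in PBS of set 2.

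At the LTR10C and MER68 copies given here, values under the drugs lay far below PBS in set 1. In set 2, per family-sheet read, both LTR10C copies lay above PBS under both treatments, and the MER68 copy lay below it. LTR13, MSTA and MER101-int copies on chromosome 8, which are not described further, also fell in 5-Aza-CdR. With all 7 libraries, LTR13 and an MSTA copy there were called lower in 5-Aza-CdR too, while another MSTA copy and MER101-int were not. These 7 include the libraries that chose the loci. HERVH-int at chr1:68855487-68855986, described above, fell by 3.57 on the log2 scale in 5-Aza-CdR (edgeR adjusted p = 0.000163). LTR10C at chr19:15948159-15948742 had 2 reads in 5-Aza-CdR and 0 in the Combination, against 41 in PBS of set 1, but 34 and 35, against 28 in Vc and 19 in PBS of set 2. LTR10C at chr5:171406701-171407291 had 0 and 0 against 18 in PBS of set 1, and 12 and 16 against 8 in Vc and 9 in PBS of set 2. MER68 at chr3:111711727-111712276 had 0 and 0 against 17 in PBS of set 1, and 22 and 27 against 26 in Vc and 30 in PBS of set 2. MER77 at chr19:45165235-45165526 had 3 and 1 against 37 in PBS of set 1, and 12 and 25 against 25 in Vc and 28 in PBS of set 2. MLT1N2 at chr1:115313188-115313340 and MLT2B4 at chr2:187292548-187292580 fell in both contrasts too; MLT1N2 had 0 and 0 reads against 11 in PBS of set 1, and MLT2B4 had 0 and 1 against 24.

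Between the treatments, 3 loci fell and 0 rose in the Combination over 5-Aza-CdR, against 3.03% lower and 0.379% higher among the 264 copies tested. HERVK3-int on chromosome 19 fell by 1.08 on the log2 scale (edgeR adjusted p = 0.0154), MER21C on chromosome 1 by 0.93 (adjusted p = 2.01e-06) and MER11B on chromosome 3 by 0.57 (adjusted p = 0.00181). None of the 3 was called with family-sheet totals as library sizes or with all 7 libraries. In set 2, HERVK3-int had a ratio of Combination to 5-Aza-CdR of 0.452 (0.293 to 0.689) and the LTR3 beside it of 0.484 (0.276 to 0.834). Over the 598 loci this ratio was 0.78 (0.712 to 0.856) in set 1 and 0.962 (0.922 to 1) in set 2.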

How the data were processed

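Double-stranded RNA libraries of HCT116 were analysed from 2 workbooks. The deposited values used are raw read counts per repeat family and per annotated copy, and the authors' tRNA sheet of set 1 gives a ratio of family count to tRNA count, from which each library's tRNA number was computed. Per the labels the build is hg19, and per the submitters' processing notes Bowtie2 and Picard were used for set 2; the counter, the aligner of set 1, the handling of duplicates and of multiply mapped reads are not given in the sources used here. Positions count from 1 on hg19.

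The loci, repeat groups and tests were chosen with earlier results of these data known. Named loci are those with most PBS and Vc reads, with most set 1 PBS reads, with the smallest adjusted p in each direction and contrast, beside the threshold, at the top of their group, or in the closest opposite-strand pairs; loci on chromosome 8 are not described, and MSTB-int on chromosome 14 and the copies of equal length were named after their values were seen. Ratios of 2 libraries have exact conditional binomial intervals and shares have Wilson intervals, at 95%. The locus fit used edgeR 4.0.16 (trimmed mean of M-values) in R 4.3.3 on copies with at least 30 reads over the 5 libraries, and was tested on simulated data. DESeq2 1.42.0 was an alternative. The deviation of set 1 from set 2 at 409 loci with at least 30 reads over all libraries correlated between treatments at 0.66 to 0.83, so the set was kept as a block. No genome of this build was used here, so sequences and genes near the loci are not given.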

Additional observations from a re-analysis of the deposited data

How the results depend on the processing

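The number of constitutive loci was 1116 at a threshold of 4 summed reads and 205 at 16, against 600 at 8. PBS of set 1 had at least 5 reads at 102 loci, against 1 read at 235. The count of called loci was 25 in each contrast with PBS and 3 between the treatments. In 5-Aza-CdR over PBS it was 6 with no filter beyond 1 read, 11 with all 7 libraries, 2 by DESeq2 and 0 with no replicate block. In the Combination over PBS it was 5, 11, 2 and 0 under the same settings. In the Combination over 5-Aza-CdR it was 0 with each of these, with family-sheet totals and with at least 15 reads. At an unadjusted p under 0.05 there were 6 loci between the treatments, 7 with family-sheet totals, 4 with at least 15 reads, 6 with no filter (edgeR) and 0 with all 7 libraries, with no replicate block or by DESeq2. The fit of 5 libraries leaves no residual degree of freedom without another library, so leaving out each library used all 7, a choice made after seeing the data: counts ran from 0 to 19 in 5-Aza-CdR over PBS, 0 to 21 in the Combination over PBS and 0 to 3 between the treatments. They were 0 without either 5-Aza-CdR library or either Combination library, highest without PBS of set 2, and 10, 11 and 0 without Vc. Fitted changes of named loci reversed at MER68-int on chromosome 16, with -0.13 in the Combination with all 7 libraries, and at MER52A on chromosome 2, with -0.23. The causes were not tested.

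By locus-sheet totals over all 600 loci, ratios to PBS in set 1 were 0.862 in 5-Aza-CdR and 0.87 in the Combination. HERVE_a-int held 106889 of the 112660 PBS reads summed there, so these values mostly describe that copy. The 598 counted loci held 941 of 39098 locus-sheet reads in 5-Aza-CdR, 912 of 50826 in the Combination and 2532 of 133279 in PBS. That is a larger share in 5-Aza-CdR than in PBS. From the 598 loci, ratios to PBS in set 1 were 0.597 and 0.523 without MER21C, the member with most reads. They were 0.887 and 0.741 without LTR12 in the total, and 2.26 and 5.25 by the tRNA number. In set 2 they were 0.669 and 0.696 without LTR12 in the total, and, for loci chosen on Vc alone, 0.587, 0.556 and, for Vc, 1.24. Shares in set 1 by locus-sheet totals, which include HERVE_a-int, were 72.9% in 5-Aza-CdR, 73.6% in the Combination and 84.5% in PBS. Without the highest locus they were 4.72%, 4.13% and 7.9%, and in set 2 30.4% in Vc, 14.9% in the Combination and 29.1% in PBS. Without LTR12 in the total they were 9.9% for 5-Aza-CdR and 8.28% for the Combination in set 1, and 33.1% in Vc, 21.2% in 5-Aza-CdR, 22% in the Combination and 31.6% in PBS of set 2.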

Other observations

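At 39 non-LTR12 copies, PBS and Vc of set 2 together had 8 or more reads but either had fewer than 2. LTR16C at chr4:83691801-83692106 had 26 reads in Vc and 0 in PBS, and LTR33 at chr7:43254394-43254592 had 0 in Vc and 25 in PBS. In PBS of set 1, 56 non-LTR12 copies that are not constitutive loci had 20 or more reads, with 146 reads in 5-Aza-CdR, 101 in the Combination and 3545 in PBS of set 1. They had 19 in Vc, 15 in 5-Aza-CdR, 34 in the Combination and 28 in PBS of set 2. MLT1F1 at chr5:36221359-36221589 held 45, 23 and 777 of the set 1 reads, and 1 read in 5-Aza-CdR and 2 in PBS of set 2. Of the LTR12 copies, 25 passed the same read thresholds, with 93 reads in 5-Aza-CdR, 169 in the Combination and 106 in PBS of set 1, and 342 in Vc, 495 in 5-Aza-CdR, 642 in the Combination and 264 in PBS of set 2.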
